A study of Mus musculus with 8 samples.

Results

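Adipokines and other factors secreted by brown fat were examined as 10 genes chosen by name: *Adipoq*, *Lep*, *Retn*, *Cfd*, *Rbp4*, *Nrg4*, *Bmp8b*, *Angptl4*, *Fgf21* and *Apln*. All 10 were found among the 33641 gene symbols measured. The study deleted HuR, the RNA-binding protein encoded by *Elavl1*, in adipocytes and sequenced poly(A) RNA from interscapular BAT of C57BL/6 mice aged 28 weeks. In *Adipo-HuR-/-* mice a floxed *Elavl1* allele was recombined by Cre under adiponectin regulatory sequence, so the driver of the deletion belongs to *Adipoq*, itself a member of the group described here. Controls were littermates given as wild-type, which the study's methods define as *wt/wt-cre+*, *flox/flox-cre-* or *wt/flox-cre-*; the labels do not say which of these each control was, nor its sex or diet. The labels name 3 libraries as control (A7, A8, A12), and the remaining 5 libraries, A24, A25, A26, A29 and A31, carry the label *Adipo-HuR-/-*, whereas the legend in the study states the sizes of the groups the other way round, and the labels were followed.

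Depth differed between libraries. Among those labelled control, the summed counts came to 60622522 for A7, 51751002 for A8 and 50673814 for A12. Among those labelled *Adipo-HuR-/-*, they came to 67498055 for A26, 58727739 for A31 and 50893173 for A29, but to 18264754 for A24 and 17558090 for A25. Levels are given below as TMM-normalized CPM, counts per 1e6 after TMM scaling. *Elavl1* stood at 50.6, 48.0 and 49.2 CPM in A7, A8 and A12, and at 61.9, 47.3, 43.4, 61.3 and 61.2 CPM in A24, A25, A26, A29 and A31. The total for the deleted gene was thus no lower where the label was *Adipo-HuR-/-* (log2 fold change 0.16 ± 0.16 SE, edgeR adjusted p = 0.667), and every direction below rests on the labels. This total is RNA of the whole gene in bulk tissue. HuR protein, which the study examined by Western blot, was not measured in these libraries. The study reports most of its changed genes, among them genes of sarcoplasmic calcium cycling, as decreased in *Adipo-HuR-/-* mice. Under the labels here, 69 genes were lower and 36 higher at the threshold given below. All 14 skeletal muscle markers were lower, 2 of them past that threshold. Their sum did not follow the labels in every library. It was 3589.7 CPM in A7 and 2411 in A8, but 54.0 in A12, also labelled control, against 395 in A31, labelled *Adipo-HuR-/-*. With total counts in place of TMM, 25 genes were lower and 96 higher. Whether labels had been exchanged was not tested. The tissue label was checked against 12 brown adipocyte markers, all of which had counts in all 8 libraries. *Ucp1*, the uncoupling protein of brown fat, was at 4843, 11438 and 9483 CPM in A7, A8 and A12, and at 10703 CPM in A24, 9475 in A31, 7636 in A26, 7213 in A29 and 4251 in A25. A7 and A25 had the lowest *Ucp1*, and the groups overlapped.

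Adipocytes release protein hormones that report on fat stores and act on liver, muscle and brain. Adiponectin, leptin, resistin, adipsin and retinol binding protein are made by white fat and to differing degrees by brown fat. Activated brown fat also releases growth factors of the neuregulin, BMP and FGF families, which act on neighbouring nerves and vessels or on distant organs.

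The members spanned a wide range of abundance. On the TPM scale, which corrects for transcript length and so allows genes to be compared, *Adipoq* had the highest mean level at 609 ± 141 TPM (SD, n = 8) and exceeded *Cfd* in 8 of 8 libraries. *Cfd* followed at 268 ± 185 TPM and exceeded *Rbp4* in 7 libraries. *Rbp4* (110 ± 53.1 TPM), *Angptl4* (107 ± 73.2 TPM) and *Nrg4* (85.02 ± 17.3 TPM) lay within their spread of each other, with *Rbp4* above *Angptl4* in 5 of 8 libraries and *Angptl4* above *Nrg4* in 6. *Nrg4* exceeded *Retn*, at 31.1 ± 15.3 TPM, in all 8. Below these came *Lep* at 9.75 ± 9.70 TPM, *Bmp8b* at 4.06 ± 2.30 TPM, *Fgf21* at 2.31 ± 0.739 TPM and *Apln* at 1.55 ± 0.614 TPM. *Lep* was above *Bmp8b* in 7 libraries, *Bmp8b* above *Fgf21* in 6 and *Fgf21* above *Apln* in 7, so that adjacent genes at the low end also changed places. Ranked by mean TPM among the genes tested, *Adipoq* was number 171 and *Apln* number 10292.

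The comparison of the labelled groups asks whether loss of adipocyte HuR goes with a change in these transcripts. Genes were tested with edgeR's quasi-likelihood test and called at a Benjamini-Hochberg adjusted p of at most 0.05 and a fold change of at least 1.5. None of the 10 members passed this threshold, against 105 of the 14851 genes tested (0.707%). At an unadjusted p of at most 0.05 there were 3 members (*Cfd*, *Retn* and *Lep*), where 17.0% of all genes were at or under this p. For 1 member, *Cfd*, the groups did not overlap, which was the case for 11.5% of all genes. *Cfd* also passed the same threshold with DESeq2's Wald test (adjusted p = 0.00917), which called 5.51% of genes, and with edgeR's likelihood ratio test (adjusted p = 0.0350), which called 4.41%. Over the 19 other settings tried, the adjusted p of *Cfd* reached up to 0.382. No member passed with limma voom. The members divided evenly by direction, 5 higher and 5 lower in *Adipo-HuR-/-*-labelled libraries, with a median log2 fold change of 0.15 against 0.00 for all genes tested. Their coefficient of variation over the 8 libraries had a median of 46.4%, against 26.1% for all genes tested. With total counts in place of TMM the median log2 fold change over the genes tested moved to 0.23, and the signs of *Adipoq* (0.21) and *Nrg4* (0.04) turned. The calls then comprised 96 higher and 25 lower genes, where TMM gave 36 higher and 69 lower.

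*Cfd*, on chromosome 10 of GRCm38 (chr10:79890853-79892655, plus strand), encodes adipsin, the complement factor D protease released by adipocytes. Its level was 21.3, 104 and 91.1 CPM in A7, A8 and A12. The 5 libraries labelled *Adipo-HuR-/-* had 375 CPM in A24, 258 in A25, 255 in A31, 141 in A26 and 133 in A29. All 5 of these lay above the highest control library, and A7 lay far below every other library. The log2 fold change was 1.69 ± 0.52 SE, or 3.22-fold with a 95% interval of 1.46 to 7.13 (edgeR adjusted p = 0.133). The two-sided exact permutation test of the CPM gave p = 0.0357, the smallest that the 56 divisions of 8 libraries into 3 and 5 can give. Without A7 the log2 fold change was 1.25, and without A8 it was 2.06.

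*Retn* (chr8:3655770-3660110, plus strand) encodes resistin and lies 625272 bases from *Elavl1* on the same chromosome. It was measured at 11.7, 10.3 and 14.4 CPM in A7, A8 and A12. The libraries labelled *Adipo-HuR-/-* gave 41.96 CPM in A24, 25.9 in A31, 22.2 in A29, 18.7 in A25 and 12.3 in A26. A24 was highest, A26 fell among the controls, and the other 4 exceeded every control. The difference came to a log2 fold change of 0.99 ± 0.34 SE, or 1.99-fold (95% interval 1.18 to 3.35), with an edgeR adjusted p of 0.172 and a two-sided exact permutation p of 0.0714. Without A24 it was 0.70, and the sign held in all 19 other settings for both *Retn* and *Cfd*.

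*Adipoq* (chr16:23146536-23158028, plus strand) encodes adiponectin. It was at 318, 858 and 601 CPM in A7, A8 and A12. Values in the libraries labelled *Adipo-HuR-/-* were 866 CPM in A24, 601 in A31, 465 in A25, 464 in A26 and 435 in A29. The lowest value belonged to a control, the highest was in A24, and A8 and A24 were nearly level. The fold was 0.956 (95% interval 0.578 to 1.58), and differences within this interval were not detectable here (edgeR adjusted p = 0.941, two-sided exact permutation p = 0.929). Its sign depended on which control was left out, with a log2 fold change of -0.37 without A7 and 0.31 without A8. On the TPM scale A8 did not stand out, at 611 TPM against 621 in A12, and its TMM factor, 0.763, was the lowest of the 8.

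*Lep* (chr6:29060220-29073877, plus strand) encodes leptin, the satiety hormone made mainly by white adipocytes. Levels were 64.3, 25.6 and 11.2 CPM in A7, A8 and A12. They were 28.7 CPM in A29, 14.6 in A31, 12.004 in A25, 9.85 in A26 and 6.99 in A24. A7 had more than any other library, A29 came next, and A8 and A12 sat within the range of the libraries labelled *Adipo-HuR-/-*. The log2 fold change was -1.22 ± 0.53 SE (edgeR adjusted p = 0.279, two-sided exact permutation p = 0.286), and it was -0.35 without A7. Without A7, A8 and A31 it turned to 0.37 ± 0.65 SE. *Rbp4* (chr19:38116629-38125281, minus strand), the plasma carrier of retinol, was likewise highest in A7, with 121 CPM there, 94.8 in A8 and 65.8 in A12. It was at 87.7 CPM in A24, 86.1 in A25, 76.1 in A29, 45.2 in A31 and 25.8 in A26. The groups overlapped (log2 fold change -0.55 ± 0.37 SE, edgeR adjusted p = 0.491), and without A7, A8 and A31 the value was 0.06. For *Rbp4* it was -0.33 without A7, -0.35 without A26, -0.75 without A12 and -0.94 without A24 and A25.

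**Figure D1:**
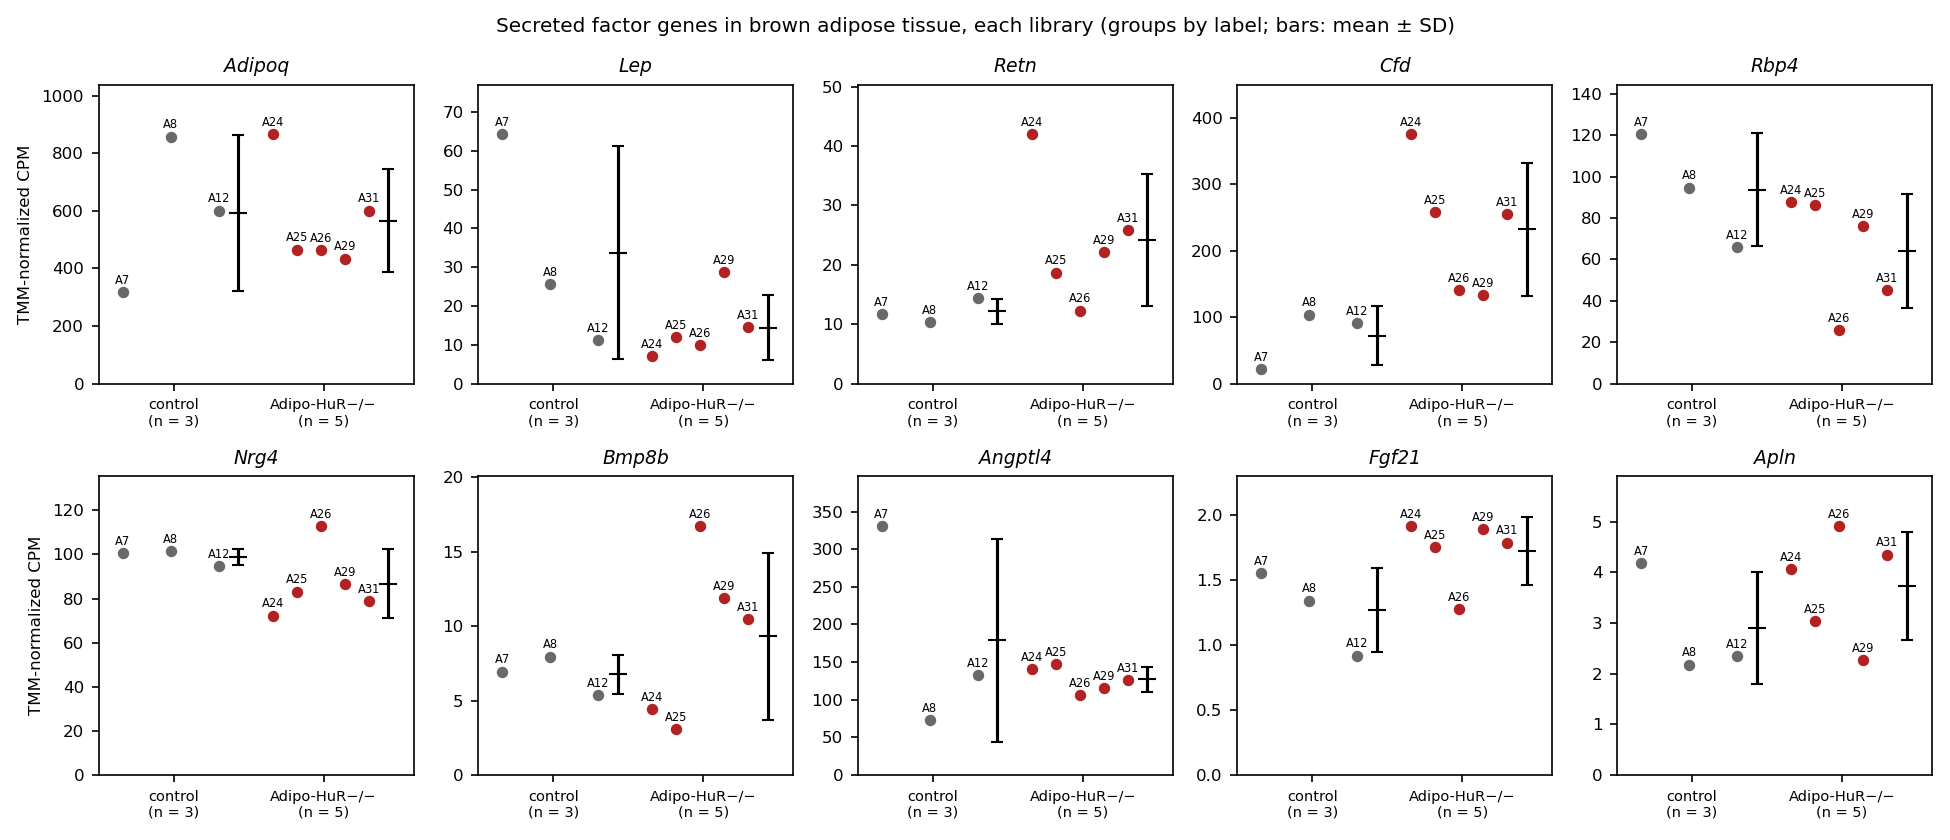
TMM-normalized CPM of the 10 secreted factor genes (vertical axes, each from 0) in each library, by labelled group (horizontal axes); points are libraries and bars the mean ± SD. For *Cfd*, the 5 libraries labelled *Adipo-HuR-/-* lie between 133 and 375 CPM and the controls between 21.3 and 104, and for the other 9 genes the groups overlap.

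Of the factors known from brown fat, *Nrg4* (chr9:55220222-55326844, minus strand) encodes neuregulin 4, a ligand of ErbB receptors that acts on liver and on nerve endings. It was at 100.5, 102 and 94.7 CPM in A7, A8 and A12, and at 113 CPM in A26, 86.4 in A29, 83.1 in A25, 78.7 in A31 and 72.2 in A24. The controls lay close together, A26 exceeded them and the other 4 fell below them. With a coefficient of variation of 14.8%, *Nrg4* varied least of the 10 genes over the 8 libraries. Its fold was 0.876 with a 95% interval of 0.681 to 1.13 (edgeR adjusted p = 0.605, two-sided exact permutation p = 0.250). The log2 fold change of *Nrg4*, -0.19 with all libraries, ran from -0.30 without A26 to -0.14 without A24. With the top transcript of the gene, a noncoding one with 37.7% of its counts, it was -0.41. The share of that transcript was lowest in A24 (23.98%) and A25 (27.4%). The gene shares 4212 bases with *Fbxo22* on the opposite strand, and whether the counting used strand is not given in the sources used here, so reads from the shared stretch are uncertain.

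*Bmp8b* (chr4:123105165-123132099, plus strand) encodes a BMP that raises the response of brown fat to sympathetic input. It was at 6.95, 7.95 and 5.37 CPM in A7, A8 and A12. Under the label *Adipo-HuR-/-* it gave 16.7 CPM in A26, 11.9 in A29, 10.5 in A31, 4.399 in A24 and 3.08 in A25. These 5 libraries fell on both sides of the controls, with A24 and A25, the shallowest, at 78 and 65 counts below them and the other 3 above. The log2 fold change was 0.48 ± 0.47 SE with all libraries and 0.94 ± 0.24 SE without A24 and A25 (edgeR adjusted p = 0.657 and 0.188), and it was 0.16 ± 0.44 SE without A26 (edgeR adjusted p = 0.895). *Bmp8b* overlaps *Oxct2b* on the same strand and shares 4985 bases with *Ppie* on the opposite strand, so its reads there are uncertain as for *Nrg4*.

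*Angptl4* (chr17:33773750-33781830, minus strand) encodes a secreted inhibitor of lipoprotein lipase and is a known PPAR target. It stood at 331, 72.8 and 133 CPM in A7, A8 and A12, against 147 CPM in A25, 140.3 in A24, 126 in A31, 115 in A29 and 106 in A26. The controls held both the highest and the lowest value, and the libraries labelled *Adipo-HuR-/-* lay between them. Its log2 fold change of -0.50 ± 0.38 SE (edgeR adjusted p = 0.556, two-sided exact permutation p = 0.643) turned to 0.30 without A7. A7 thus held the highest *Lep*, *Rbp4* and *Angptl4* and the lowest *Adipoq* and *Cfd* of the 8 libraries.

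*Fgf21* (chr7:45613886-45615490, minus strand), an endocrine FGF best known from liver, had 34 to 118 counts in each library. It was at 1.55, 1.34 and 0.919 CPM in A7, A8 and A12, and at 1.92 CPM in A24, 1.89 in A29, 1.79 in A31, 1.76 in A25 and 1.27 in A26. All but A26 of the libraries labelled *Adipo-HuR-/-* were above the controls (1.35-fold, 95% interval 0.872 to 2.09, edgeR adjusted p = 0.481). The log2 fold change, 0.43 with all 8 libraries, ran from 0.25 without A12 to 0.60 without A7. *Apln* (chrX:48025146-48034853, minus strand) encodes apelin, a peptide that acts on vessels, and had 64 to 332 counts. It was at 4.18, 2.18 and 2.34 CPM in A7, A8 and A12, and at 4.92 CPM in A26, 4.35 in A31, 4.06 in A24, 3.04 in A25 and 2.27 in A29. The groups overlapped over most of their range (1.28-fold, 95% interval 0.784 to 2.10, edgeR adjusted p = 0.618). Its log2 fold change of 0.36 became 0.72 without A7, 0.20 without A8, 0.23 without A12 and 0.24 without A26.

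**Figure D2:**
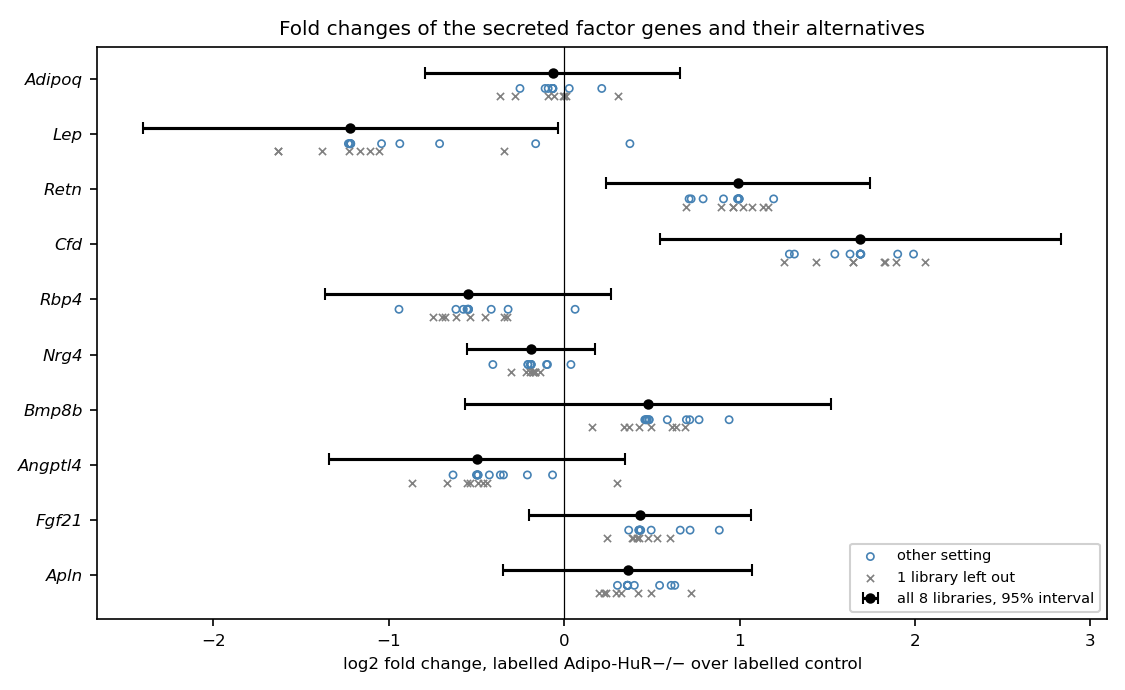
Log2 fold changes of the 10 genes, libraries labelled *Adipo-HuR-/-* over those labelled control; filled circles with bars are the values from all 8 libraries with 95% intervals, open circles other settings and crosses the fits with 1 library left out. The values of *Cfd* lie between 1.25 and 2.06 over these settings, whereas those of *Lep* run from -1.63 to 0.37.

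Markers of other cells differed between libraries beside these values. In bulk tissue, fewer cells of a type and less RNA per cell cannot be told apart. The 14 skeletal muscle markers summed to 3589.7 CPM in A7, 2411 in A8 and 395 in A31. In the other 5 libraries the sum was 54.0 CPM (A12), 42.0 (A24), 30.4 (A25), 21.7 (A26) and 43.6 (A29). All 14 were lower in log2 fold change, with a median of -4.68, and 2 were past the threshold, *Myh7* (-7.86 ± 1.48 SE) and *Myl1* (-2.28 ± 0.43 SE). Both calls were lost without any of A7, A24, A25, A26 and A29, with log2 fold changes of -5.58 for *Myh7* and -2.03 for *Myl1* without A7. Both were also lost with limma voom (-3.92 ± 2.64 SE and -1.71 ± 0.49 SE) and with the muscle score, built from these same markers, as a covariate (-2.80 and -1.08). The call of *Myl1* was also lost without A8 or A31, with total counts in place of TMM (-2.03) and with the top transcript (-2.32). That of *Myh7* held without A8 and with total counts. *Myh7* was not tested without A31 or with the top transcript. *Myl1* had the highest mean TPM of the list at 149 TPM and remained at 19.9 CPM or more in every library. *Acta1*, skeletal muscle actin, was at 619 CPM in A7, 320 in A8 and 54.0 in A31 and under 1 CPM elsewhere. *Pvalb* had 0 counts in the 5 libraries other than A7, A8 and A31. With the mean log2 CPM of the muscle markers as a covariate, the log2 fold changes were 1.54 ± 0.61 SE for *Cfd*, 0.91 ± 0.41 SE for *Retn* and -0.16 ± 0.69 SE for *Lep*. For the others they were 0.72 for *Fgf21*, 0.72 for *Bmp8b*, 0.63 for *Apln*, -0.07 for *Adipoq*, -0.21 for both *Nrg4* and *Angptl4*, and -0.42 for *Rbp4*, and no member was past the threshold in that fit.

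Of 11 white adipocyte markers 7 could be tested, and their sum was 302, 99.8 and 178 CPM in A7, A8 and A12. The sum was 98.0 CPM in A29, 95.1 in A31, 79.7 in A24, 74.5 in A26 and 54.4 in A25, each below the controls. Much of it was *Npr3*, the natriuretic peptide clearance receptor, at 231, 60.4 and 114 CPM in A7, A8 and A12 and at 61.3 CPM in A29, the highest of the other 5, so that *Npr3* itself overlapped. The mean log2 CPM of the 7 markers overlapped too, at 2.39, 1.90 and 3.08 in A7, A8 and A12 and between 1.83 and 2.70 in the others. None passed the threshold, 5 of the 7 were lower and the median log2 fold change was -0.54. *Npr3* (-1.73 ± 0.38 SE, edgeR adjusted p = 0.0676), and *Mest* (-1.45 ± 0.35 SE, edgeR adjusted p = 0.0858) had the smallest p, and *Sncg* the highest mean TPM (39.4 TPM). *Hoxc10* had 0 counts in all 8 libraries. Brown adipocyte markers summed to 7867, 17828 and 13509.5 CPM in A7, A8 and A12. The sums were 15998.5 CPM in A24, 14644 in A31, 11728 in A29, 11319 in A26 and 7895 in A25, with *Ucp1* the highest of the 12 by TPM. None of the 12 passed the threshold (7 higher, 5 lower, median 0.05), and *Prdm16* (0.60 ± 0.23 SE) and *Lhx8* (1.28 ± 0.50 SE) had the smallest p. The 12 shared adipocyte markers divided into 6 higher and 6 lower, with a median of -0.04 and none past the threshold. Their sum lay between 25036 CPM (A25) and 37976.5 CPM (A8), *Cebpa* (0.40 ± 0.20 SE) and *Pparg* (-0.38 ± 0.19 SE) had the smallest p, and *Fabp4* the highest TPM.

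**Figure D3:**
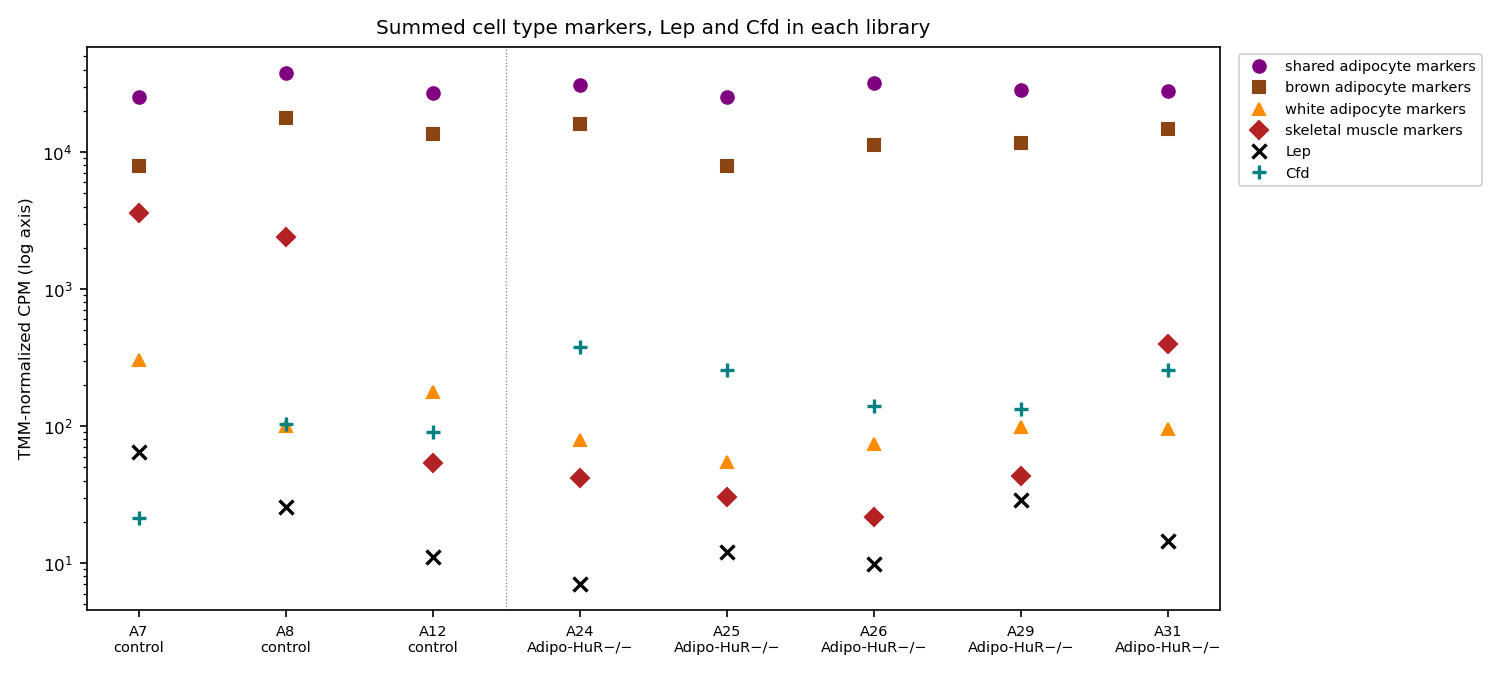
Summed TMM-normalized CPM of marker lists, and the CPM of *Lep* and *Cfd* (vertical log axis), in each library (horizontal axis, groups by label). Skeletal muscle markers reach 3589.7 CPM in A7 and 2411 in A8, 395 in A31, and 54.0 or less in the other 5 libraries, while shared adipocyte markers stay between 25036 and 37976.5 CPM.

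No gene passed the threshold among the remaining marker lists. All 10 endothelial markers were higher (median 0.28), led by *Egfl7* (0.47 ± 0.13 SE, edgeR adjusted p = 0.117) and *Tie1* (0.62 ± 0.20 SE), and *Egfl7* also had their highest TPM. Of 7 mural markers 4 were lower (median -0.07), with *Myh11* (-0.50 ± 0.22 SE) and *Cspg4* (-0.36 ± 0.19 SE) first by p and *Rgs5* highest by TPM. Fibroblast and preadipocyte markers were lower for 6 of 8 (median -0.20), with *Col3a1* (-1.09 ± 0.40 SE) and *Cd34* (0.22 ± 0.18 SE) first and *Dcn* highest. Macrophage markers were lower for 8 of 9 (median -0.07), with *Mrc1* (-0.60 ± 0.51 SE) and *Csf1r* (-0.40 ± 0.35 SE) first and *Lyz2* highest. Lymphocyte markers (7 of 8 tested higher, median 0.45) were led by *Cd3e* (1.40 ± 0.48 SE) and *Cd3g* (-0.82 ± 0.56 SE), with *Cd79a* highest, and summed to at most 4.05 CPM. Schwann cell markers were higher for 4 of 6 (median 0.36), with *Sox10* (0.92 ± 0.34 SE) and *Prx* (0.64 ± 0.38 SE) first and *Mbp* highest. Hepatocyte markers, which would mark RNA from the organ best known for *Fgf21* and *Rbp4*, summed to at most 5.64 CPM (A24), and 3 of 7 passed the filter, among them *Apoa1* (1.11 ± 0.65 SE) and *Apoa2* (-0.25 ± 0.48 SE).

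Receptors and partners of the secreted factors were followed as a list of 29 genes, of which 25 could be tested and none was past the threshold. There were 10 higher and 15 lower, with a median log2 fold change of -0.05. *Erbb4*, a receptor that binds neuregulin 4, was at 6.02, 3.01 and 5.33 CPM in A7, A8 and A12. Levels under the label *Adipo-HuR-/-* were 2.80 CPM in A25, 2.37 in A26, 1.92 in A24, 1.4996 in A31 and 1.00 in A29. Each of these was below every control (-1.33 ± 0.35 SE, edgeR adjusted p = 0.0976). *Erbb3*, a co-receptor of the same family, was at 3.55, 2.0003 and 2.49 CPM in A7, A8 and A12 and between 3.50 and 6.10 CPM in the libraries labelled *Adipo-HuR-/-* (0.85 ± 0.26 SE, edgeR adjusted p = 0.135). Only A24 overlapped with the controls for *Erbb3*, falling below A7. *Lpl*, the lipase inhibited by the product of *Angptl4*, had the highest TPM of the list (1171 TPM) and a log2 fold change of -0.27 ± 0.36 SE. Genes for adiponectin assembly and secretion were lower for 8 of 10 tested (median -0.20), with none past the threshold. *Plod2* (-0.72 ± 0.42 SE) and *Prdx4* (-0.48 ± 0.31 SE) had their smallest p, and *Gstk1* (-0.09 ± 0.24 SE) their highest TPM.

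Among other adipokines 35 of 47 listed genes could be tested, and 1 was past the threshold. *Ccdc3*, which encodes a secreted protein of adipocytes and endothelium, was at 155, 58.9 and 108 CPM in A7, A8 and A12. It was at 42.98 CPM in A29, 35.6 in A24, 30.6 in A25, 30.01 in A31 and 20.6 in A26. All 5 libraries labelled *Adipo-HuR-/-* were below every control (-1.75 ± 0.30 SE, edgeR adjusted p = 0.0391). The list as a whole was balanced, with 18 higher, 17 lower and a median of 0.06. Of 47 other secreted factors of brown fat 40 could be tested, with 24 higher, 16 lower, a median of 0.09 and 2 past the threshold. *Fndc5*, which encodes the precursor of irisin, was at 2.93, 4.48 and 1.21 CPM in A7, A8 and A12. Its values in the libraries labelled *Adipo-HuR-/-* were 22.5 CPM in A26, 16.7 in A24, 15.3 in A31, 11.5 in A29 and 9.92 in A25, each above every control (2.41 ± 0.42 SE, edgeR adjusted p = 0.0416). *Epdr1*, a secreted protein, was lower by the same measure (-1.92 ± 0.34 SE, edgeR adjusted p = 0.0438), at 1.84 CPM or more in the controls and 1.21 CPM or less in the 5 others. Each of these 3 calls was lost without any of A7, A24, A25, A26, A29 and A31, and that of *Epdr1* also without A8, while the direction held in all 19 other settings. Without A7 the log2 fold changes were -1.39 for *Ccdc3*, 2.42 for *Fndc5* and -1.65 for *Epdr1*. With the muscle score as a covariate the calls were lost too, at log2 fold changes of -1.76, 3.11 and -1.32 in the same order. The 3 calls were likewise lost with the top transcript of each gene, at -1.75, 2.40 and -1.93. Those of *Ccdc3* (-1.58) and *Epdr1* (-1.69) were lost with total counts in place of TMM, and that of *Epdr1* (-1.72) with limma voom.

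PPAR alpha and PPAR gamma target genes, the group to which *Angptl4* belongs by regulation, held no gene past the threshold among 29 tested (13 higher, 16 lower, median -0.10). *Vnn1* had a log2 fold change of -1.38 ± 0.69 SE, and *Fabp4*, also counted among the other adipokines and the shared adipocyte markers, had the highest TPM (-0.21 ± 0.28 SE).

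Genes with the pattern most like a member were found by the root mean square difference of centred log2 CPM over the 8 libraries. For *Cfd*, whose own SD on that scale was 1.28, these were *Aldh3b2* (0.38), *Tmem35a* (0.39) and *Lrrc73* (0.42), each lowest in A7. *Aldh3b2*, an aldehyde dehydrogenase, ranged from 2.64 CPM in A7 to 26.3 CPM in A31, whereas *Tmem35a* and *Lrrc73* reached at most 2.88 and 1.75 CPM. For *Lep* (SD 1.03) they included *Chrna1* (0.29), a subunit of the muscle acetylcholine receptor, and *Dpf1* (0.31), which both stayed below 1 CPM. For *Adipoq* (SD 0.50) they were *Rpl10-ps3* (0.12), *Fcf1* (0.15) and *Mrps18c* (0.15), a ribosomal protein pseudogene and genes of ribosome assembly and the mitochondrial ribosome. All 3 were highest in A8 and had log2 fold changes between -0.15 and -0.07. Reads of a pseudogene and its parent gene may have been divided between them, so *Rpl10-ps3* is uncertain.

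The authors' estimated counts also divided each member between annotated transcripts. Of the 31 transcripts of the 10 genes, 11 took between 5% and 95% of their gene and were compared as shares. No share differed between the groups without overlap, and the smallest two-sided exact permutation p was 0.143. *Angptl4* was assigned mainly to a transcript of 1859 bases annotated for nonsense-mediated decay (68.5% of its counts), and 29.2% went to the coding transcript of 3308 bases. The coding share was 28.7 ± 2.44% (SD, n = 3) in the control libraries and 27.3 ± 3.92% (SD, n = 5) in the others (two-sided exact permutation p = 0.571). *Nrg4* was spread over 13 transcripts, and its main coding transcript took 20.7%, from 16.5% in A8 to 29.004% in A25. *Cfd* was divided 57.2% to 42.8% between coding transcripts of 922 and 871 bases, and *Rbp4* 89.3% to 10.7% between a pair of coding transcripts. *Lep*, *Retn*, *Bmp8b* and *Adipoq* were each carried to over 95% by a single coding transcript over all libraries, and *Fgf21* and *Apln* have only 1 in the files.

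HuR binds AU-rich and U-rich stretches, often in 3ʹUTRs, so the members' annotated 3ʹUTRs were searched on the transcript strand for ATTTA, the core of the AU-rich element, counting overlapping copies. At least 1 copy was present in the longest 3ʹUTR of 8 of the 10 members, against 69.2% of the 14066 tested genes with an annotated 3ʹUTR. *Cfd*, with a 3ʹUTR of 69 bases, and *Adipoq*, with 434 bases, held none. *Fgf21* held 4 copies in 134 bases, a density of 29.9 per kb that 0.0569% of genes reached. Of 476 genes with a 3ʹUTR of 0.8 to 1.25 times that length, 0.630% held as many. *Bmp8b* had 5 copies in 1554 bases, *Lep* 4 in 2695 and *Apln* 4 in 2567. *Retn*, *Rbp4*, *Nrg4* and *Angptl4* had 1 each, that of *Retn* only in a transcript which took 3.02% of its counts. The 30 bases with most copies are shown for the 3 members in which copies clustered, with ATTTA in capitals, from GENCODE M21 transcripts, 5ʹ to 3ʹ. That of *Fgf21* lies at chr7:45613943-45613972 on the minus strand, that of *Lep* at chr6:29071615-29071644 and that of *Bmp8b* at chr4:123125282-123125311, both on the plus strand, all within 3ʹUTR exons.
Fgf21: ttacgggtATTTAtcttATTTATTTAtttt
Lep: ggaagcacttATTTATTTAttctgcattct
Bmp8b: ttgcggATTTAtcatctggATTTAggcatc
A match is a description of these letters, and binding of HuR was not measured in these libraries. The members with most copies differed in direction, with *Fgf21*, *Bmp8b* and *Apln* at log2 fold changes of 0.43, 0.48 and 0.36 and *Lep* at -1.22, none of them past the threshold. *Cfd*, the member with the largest log2 fold change, was also not past the threshold and had none of the motif in its 3ʹUTR of 69 bases. Its other coding transcript, with 42.8% of its counts and a 3ʹUTR of 21 bases, was not searched. U-rich stretches were not searched for in any member.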

How the data were processed

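Poly(A) libraries of 8 BAT samples were analysed. The authors deposited estimated counts per transcript, not normalized, for 105129 transcripts on GRCm38; the study's methods name CLC Genomics Workbench, and the counting program is not given in the sources used here. Transcript values of each symbol were added up and rounded. In R 4.3.3, genes were kept by filterByExpr in edgeR 4.0.16, scaled by TMM and tested by the quasi-likelihood functions glmQLFit and glmQLFTest; p was adjusted over 14851 genes after Benjamini and Hochberg; limma 3.58.1 and DESeq2 1.42.0 served as alternatives. SE is the log2 fold change over the square root of F. TPM used GENCODE M21 transcript lengths, found for 103635 transcripts. Log2 CPM had a prior count of 2. For a value per library, exact permutation was used, with 2 times the smaller tail as the two-sided p. Python 3.11.15 (pandas 2.3.3, numpy 2.4.6, matplotlib 3.10.9) served for transcripts, sequences and figures. Calls were also tested on simulated data, and no result given here rests on that.

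The members and gene lists were chosen with earlier results of these data known. Named are all members; of each list, the genes past the threshold or else the 2 with the smallest p and the highest by mean TPM; and the 3 genes most like *Lep*, *Adipoq* and any member whose groups did not overlap. Some genes under this rule are not reported here. *Acta1*, *Pvalb*, *Hoxc10* and the overlapping genes were named after their values were seen. Each library has a number of its own in its label, taken here as a separate mouse; litter and batch, which the labels do not give, entered no test.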

Additional observations from a re-analysis of the deposited data

Results flagged for a closer look

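In the group of 5 libraries labelled *Adipo-HuR-/-*, each of the 10 members was checked for a library far from the others. *Fgf21* in A26 was 1.27 CPM, the lowest of the 5, while the nearest library was at 1.76 CPM, a gap of 0.748 of the range of the group. A26 had 86 *Fgf21* counts, against 34 in A24 and 37 in A25. Chance alone marks about 1 in 20 such groups, and 10 members were examined. The groups of 3 controls were too small for this check.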

How the results depend on the processing

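The number of genes past the threshold was 105 and rose to 818 with DESeq2's Wald test and 655 with edgeR's likelihood ratio test. It fell to 14 with the muscle score as a covariate, 16 with the top transcript of each gene, 5 without A24 and A25, and 4 without A7, A8 and A31, and lay between 10 and 190 when each library was left out in turn: 13 without A7, 190 without A12, 15 without A25, 10 without A26, 14 without A29 and 17 without A31. The cause of these changes was not tested. Fits that leave libraries out hold fewer libraries, but the count was higher than 105 without A8 (145) and without A12. Members past the threshold numbered 0, except 1 (*Cfd*) with the Wald and the likelihood ratio tests, and 0 with each library left out. *Cfd*, *Retn*, *Bmp8b*, *Fgf21* and *Apln* were higher in all 19 settings. The sign of *Adipoq* turned with total counts (0.21), limma voom (0.029), without A8 (0.31) and without A29 (0.01), between -0.37 and 0.31 with 1 library left out. *Nrg4* turned with total counts (0.038), *Lep* (0.37) and *Rbp4* (0.062) without A7, A8 and A31, and *Angptl4* without A7 (0.30), where the lowest value with 1 library left out was -0.87. With the 3ʹUTR of the most abundant transcript, 7 in place of 8 members held ATTTA. Depth limits *Fgf21*, *Apln* and *Bmp8b* most, with 34, 64 and 65 counts in their lowest libraries. No paired analysis was possible because the labels give no litter or other link between a control and an *Adipo-HuR-/-* library.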

Other observations

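*Adipoq* has a short annotated coding transcript of 539 bases beside the main one of 1292 bases. Its share of the estimated *Adipoq* counts was 8.63% in A25 and 2.21% in A24, the libraries with the fewest counts, and at most 0.438% (A7) in the other 6. These shares come from the authors' division of reads between transcripts, and their relation to depth was not tested. *Nrg4* transcripts of those libraries stood apart as well: the noncoding transcript of 1878 bases took 23.98% in A24 and 27.4% in A25, and 36.6% to 42.1% in the others.

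On TMM-normalized CPM, the highest value among the 8 libraries belonged to A24 for 4 members (*Adipoq*, *Retn*, *Cfd* and *Fgf21*), to A7 for 3 (*Lep*, *Rbp4* and *Angptl4*) and to A26 for 3 (*Nrg4*, *Bmp8b* and *Apln*). On the TPM scale *Cfd* (505 TPM) and *Fgf21* (3.25 TPM) were instead highest in A25 and *Nrg4* (108 TPM) in A7.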
